A study of Mus musculus with 27 samples.

Results

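The 10 genes described here encode members of the TNF superfamily of ligands and of its receptor superfamily. They were taken as a fixed list of gene symbols and all 10 were found among the 25192 symbols of the count table. Of these, 5 are ligands (Tnf, Tnfsf9, Tnfsf12, Tnfsf13b and Ltb) and 5 are receptors (Tnfrsf1a, Tnfrsf1b, Tnfrsf9, Tnfrsf12a and Cd40). The 27 bulk RNA-seq libraries came from cultured mouse cells of 3 kinds: macrophages grown from bone marrow, fibroblasts from embryos, and cells whose label is aortic endothelial, named aortic-labelled cells in what follows. Cells rested overnight after plating and then received imidazole propionate (ImP), a bacterial product of histidine in the gut, for 1 h or 2 h at 10 µg/mL, or none (unstimulated, 0 h), with 3 libraries in each of the 9 groups. The study asked which transcriptional pathways ImP raises in each cell type.

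The labels give no strain, sex or age of the mice and no medium, and they name no vehicle group at 1 h or 2 h, so ImP and time since the start of treatment cannot be told apart. Whether the libraries of a group came from separate cultures is not said there, so the spread behind each p-value may be only technical. Aortic-labelled libraries came from a low-input kit and all others from a strand-specific kit, so kit and cell type cannot be told apart. Depth was 28.8 to 35.6 mega-counts (M counts) per macrophage library, 30.6 to 36.5 M counts per fibroblast library and 19 to 61 M counts per aortic-labelled library. All 10 macrophage markers had a mean of at least 10 CPM (counts-per-million) in macrophages, and 6 of 10 fibroblast markers did so in fibroblasts. In aortic-labelled cells only Eng, at 105 CPM, did so among 12 endothelial markers. The defining endothelial genes Pecam1 and Cdh5 had 1.36 and 0.568 CPM there and Cldn5 had no count, while 9 of the 10 fibroblast genes and 6 of 8 genes of smooth muscle reached 10 CPM.

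TNF superfamily ligands are mostly trimeric membrane proteins, some of which are cut from the cell surface, and they bind receptors that recruit TRAF adaptors or death domain proteins. These complexes switch on NF-kB and MAP kinase signalling or caspases. In macrophages Tnf is a primary inflammatory cytokine whose transcription responds within minutes to hours to microbial products. TNF and CD40 signalling are both studied in the inflamed artery wall, where macrophages, endothelial cells, smooth muscle cells and fibroblasts can carry the receptors.

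Among the macrophage libraries, the third library labelled 1 h and the third library labelled 2 h do not resemble the rest of their groups. For Tnf, the third 1 h library had 18.3 CPM, close to the 14 to 15.2 CPM of unstimulated macrophages and to the 14.3 and 18.5 CPM of the first and second 2 h libraries, and the third 2 h library had 266 CPM, close to the 227 and 220 CPM of the first and second 1 h libraries. The titles number the libraries in runs, and in 8 of 9 runs the numbers of 0 h, 1 h and 2 h follow each other. In the run holding these libraries the number of the 2 h library comes before that of the 1 h library. Whether their labels were exchanged was not tested, and each macrophage value given for 1 h or 2 h holds only if the labels do. The libraries were kept as labelled in all tests, and both are called the divergent pair from here on. Values without the pair, with 2 libraries at 1 h and 2 at 2 h, are given as a description. The pair was set apart by these genes' own levels, so p-values of single genes in that fit are not given and its values support nothing.

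Promoter sequences are shown for Tnf and Ltb, which are neighbours on chromosome 17 with unlike behaviour in macrophages, and for Tnfrsf9, which differed most between cell types. Each line gives the 250 bases before a RefSeq start site on GRCm38.p6, 5′ to 3′ on the gene's strand. Capitals mark a TATA box (TATAAA), the NF-kB binding motif kappa B (searched as GGGRNNYYCC), or the AP-1 motif TGANTCA, each searched on both strands. In these patterns R is A or G, Y is C or T, and N is any base.
Tnf, chr17:35202008-35202257 (minus strand): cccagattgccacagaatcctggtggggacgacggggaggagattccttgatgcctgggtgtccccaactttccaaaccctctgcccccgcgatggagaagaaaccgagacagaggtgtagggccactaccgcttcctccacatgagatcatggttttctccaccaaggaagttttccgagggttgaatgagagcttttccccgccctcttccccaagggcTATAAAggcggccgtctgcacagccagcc
Ltb, chr17:35194257-35194506 (plus strand): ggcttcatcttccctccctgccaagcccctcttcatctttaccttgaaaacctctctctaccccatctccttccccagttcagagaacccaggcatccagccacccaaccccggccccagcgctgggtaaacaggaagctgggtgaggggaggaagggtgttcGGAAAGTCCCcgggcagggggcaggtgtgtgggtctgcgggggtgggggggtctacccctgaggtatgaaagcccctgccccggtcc
Tnfrsf9, upstream start, chr4:150919905-150920154 (plus strand): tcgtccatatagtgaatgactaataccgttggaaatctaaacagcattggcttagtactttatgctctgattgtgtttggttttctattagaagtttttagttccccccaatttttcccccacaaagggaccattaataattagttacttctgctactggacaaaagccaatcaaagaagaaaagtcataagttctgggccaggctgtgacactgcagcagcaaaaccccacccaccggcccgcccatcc
Tnfrsf9, downstream start, chr4:150927749-150927998 (plus strand): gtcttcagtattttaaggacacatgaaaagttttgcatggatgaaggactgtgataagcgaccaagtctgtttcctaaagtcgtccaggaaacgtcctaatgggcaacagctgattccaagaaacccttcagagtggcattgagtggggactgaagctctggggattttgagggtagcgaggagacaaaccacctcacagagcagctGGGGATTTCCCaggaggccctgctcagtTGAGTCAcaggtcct
The Tnf stretch held a TATA box at -29 to -24 on the gene strand and no match to this kappa B pattern. Sites with other letters or further upstream were not searched, so Tnf may have kappa B sites not shown here. Ltb held a kappa B match at -87 to -78, read on the opposite strand. The downstream Tnfrsf9 start had 2 overlapping kappa B matches between -43 and -33 and an AP-1 match at -15 to -9, and the upstream start had none of the 3 motifs. The table held 9 promoter entries for 7 of the 10 genes, and none for Tnfsf9, Tnfsf12 and Cd40. Searched with the 50 bases after each start included, both Tnfsf13b starts held an AP-1 match and Tnfrsf1a, Tnfrsf1b and Tnfrsf12a held no match. Across all 32851 promoters of this 300-base length, 8.5% held kappa B, 7.8% held AP-1 and 13.6% held TATAAA. These shares count a match on either strand and at any position. A match describes letters only, and the gene counts do not show which start site was used.

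**Figure D1:**
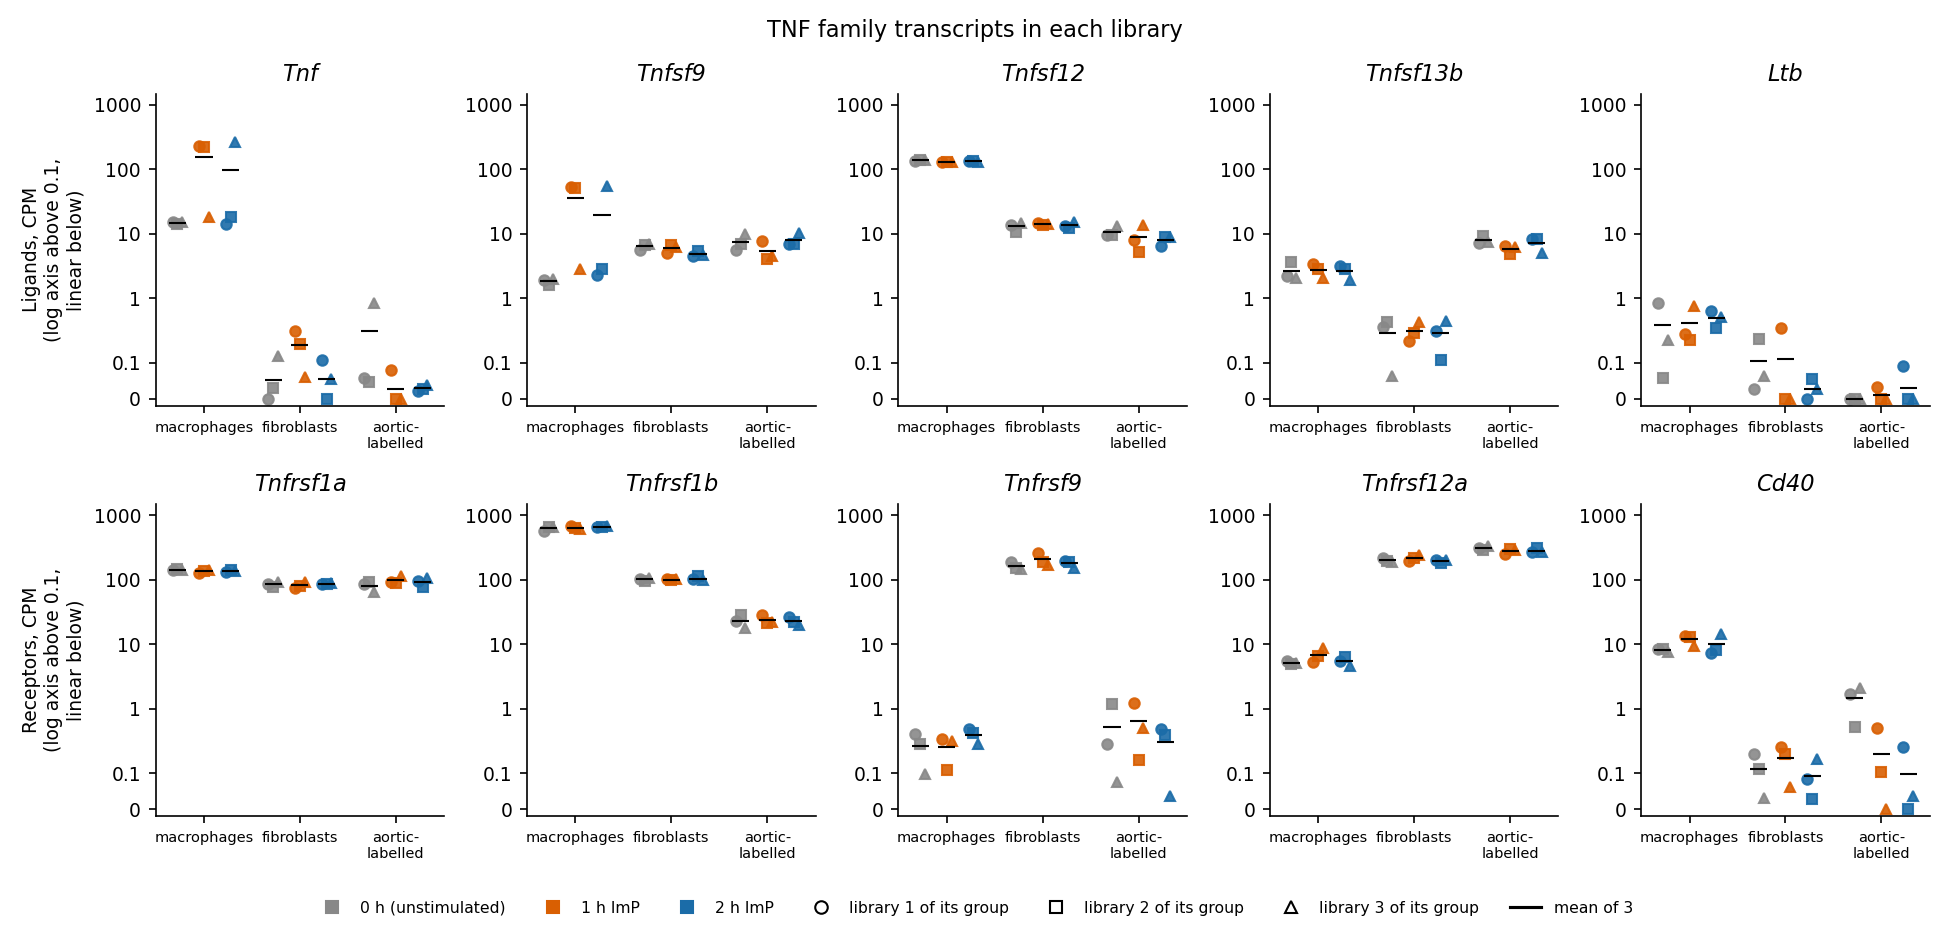
Each panel is a gene, with ligands in the upper row and receptors in the lower row. The vertical axis is CPM on a log scale above 0.1 and linear below, each point is a library, the colour is the time with ImP, and bars are means of 3 libraries. Cell type separates most genes more than time does: Tnfrsf9 sits at 146 to 262 CPM in fibroblasts and at or under 1.24 CPM elsewhere.

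In macrophages, Tnf and Tnfsf9 stood far above their unstimulated level in the first and second 1 h libraries and in the third 2 h library, and Cd40 followed the same libraries with a smaller difference. The other 7 genes showed no such pattern. As labelled, 0 of 10 genes passed edgeR's quasi-likelihood test at 1 h against 0 h (adjusted p under 0.05), where 0.0226% of all 13251 genes tested passed. At an unadjusted p under 0.05 there were 2 genes with edgeR (5.23% of all genes) and 1 each with DESeq2 and limma-voom, neither of which called a gene after adjustment. At 2 h against 0 h the edgeR count was also 0 of 10 (0.0302% of all genes), with 0 at an unadjusted p under 0.05 by each of the 3 tools (6.15% of all genes with edgeR). At 2 h against 1 h it was 0 of 10 with edgeR, DESeq2 and limma-voom alike, before and after adjustment (with edgeR 1.65% of all genes before it and 0% after it).

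Without the divergent pair, 3 of 10 genes lay past the threshold on the higher side at 1 h, beside 0.824% of 13465 genes. These were Tnf, Tnfsf9 and Cd40, the genes in which the pair stood out, so the count restates why the pair was left out. At 2 h against 0 h the count was 0 of 10 (edgeR, 1 at an unadjusted p under 0.05; 0.119% of all genes past the adjusted threshold, 7.75% unadjusted). The same 3 genes lay past it on the lower side at 2 h against 1 h, beside 0.609% of all genes. The other 7 genes had log2 fold changes between -0.57 and 0.25 at 1 h and between -0.06 and 0.74 at 2 h in this fit.

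Tnf, the founding ligand of the family (ENSMUSG00000024401, chr17:35199381-35202007, minus strand, GRCm38, protein coding), had 15.2, 14 and 15.2 CPM in the 3 unstimulated macrophage libraries. The libraries labelled 1 h had 227, 220 and 18.3 CPM. The libraries labelled 2 h had 14.3, 18.5 and 266 CPM. All 1 h libraries were above all unstimulated ones, as for 4.77% of all genes, while the 2 h group spanned nearly the whole range. As labelled, the log2 fold change at 1 h was 3.39 (SE 1.49, edgeR unadjusted p = 0.0621, adjusted p = 0.929), and that at 2 h was 2.75 (SE 1.46, edgeR adjusted p = 0.821). Without the divergent pair it was 3.92 at 1 h and 0.15 at 2 h, and the log2 change from 1 h to 2 h was -3.77.

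Outside macrophages Tnf was near the limit of detection. Fibroblast libraries had 0 to 10 Tnf counts each, and 3 counts, the limit that a count of 0 allows for counting error alone, were exceeded in 4 of the 9 libraries. Aortic-labelled libraries had 3, 1 and 22 counts at 0 h, 5, 0 and 0 at 1 h, and 1 in each 2 h library. Tnf did not reach the minimum count for a test over time in either cell type. The library with 22 Tnf counts also had the highest summed macrophage markers of the aortic-labelled libraries, 86.7 CPM against 49.0 to 63.8 CPM in the other libraries, and the part of this in its Tnf level was not tested.

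Tnfsf9, the ligand 4-1BBL (ENSMUSG00000035678, chr17:57105325-57107757, plus strand), had 1.96, 1.64 and 1.98 CPM in unstimulated macrophages. The 1 h libraries had 54.0, 52.1 and 2.83 CPM, and the 2 h libraries had 2.32, 2.87 and 54.5 CPM. The same 3 libraries were high as for Tnf, and every library labelled 1 h or 2 h was above every unstimulated library, as for 4.77% of all genes at 1 h and 5.25% at 2 h. As labelled the log2 fold change was 4.29 at 1 h (SE 1.74, edgeR unadjusted p = 0.048, adjusted p = 0.922) and 3.42 at 2 h (SE 1.73, edgeR adjusted p = 0.814). Without the divergent pair it was 4.83 at 1 h and 0.48 at 2 h, and the log2 change from 1 h to 2 h was -4.35.

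In fibroblasts, Tnfsf9 had 5.64, 6.76 and 7.01 CPM unstimulated, 5.04, 6.81 and 6.30 CPM after 1 h, and 4.5, 5.45 and 4.72 CPM after 2 h. All 2 h libraries were below all unstimulated ones, with a log2 fold change of -0.40 (SE 0.17, edgeR unadjusted p = 0.0336, adjusted p = 1). Across all genes, 4.48% had every 2 h fibroblast library below every unstimulated one. In aortic-labelled cells Tnfsf9 had 5.57, 7.07 and 9.95 CPM unstimulated, 7.87, 4.06 and 4.52 CPM after 1 h, and 6.87, 7.03 and 10.4 CPM after 2 h, and the groups overlapped. Tnfsf9 was thus above 1 CPM in all 27 libraries, whereas Tnf reached at most 0.838 CPM outside macrophages. A predicted gene, Gm11110, overlaps it on the opposite strand, and the strand of counting is not given in the sources used here.

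**Figure D2:**
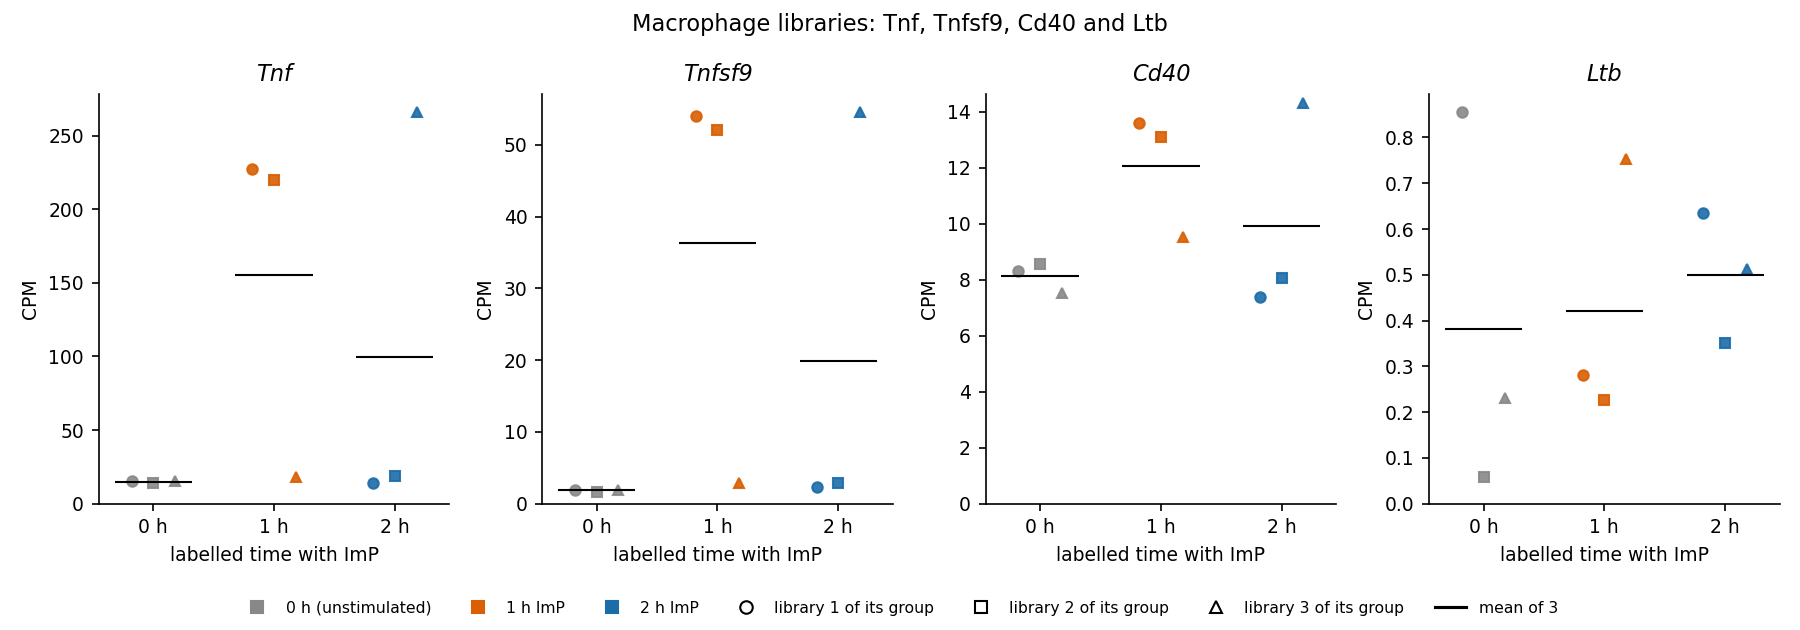
Levels of Tnf, Tnfsf9, Cd40 and Ltb in the 9 macrophage libraries, in CPM on linear axes that start at 0, by labelled time with ImP. Point shape gives the library within its group and bars are means of 3. For Tnf, Tnfsf9 and Cd40 the third 1 h library lies nearer to the unstimulated libraries than to the other 1 h libraries, and the third 2 h library lies with the first and second 1 h libraries, while Ltb stays between 0.0575 and 0.856 CPM without that pattern.

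Tnfsf12, the ligand TWEAK (ENSMUSG00000097328, chr11:69686250-69695849, minus strand), had the highest level of the 5 ligands in unstimulated macrophages and varied little with time. The unstimulated libraries had 137, 139 and 140 CPM, the 1 h libraries 130, 132 and 131 CPM, and the 2 h libraries 133, 135 and 130 CPM. All ImP libraries were below all unstimulated ones, but the log2 fold change was only -0.08 at 1 h (SE 0.0522, edgeR adjusted p = 0.955) and -0.06 at 2 h (SE 0.0522, edgeR adjusted p = 0.878). Across all genes 5.62% at 1 h and 6.31% at 2 h had every ImP library below every unstimulated one. Fibroblasts had 10.7 to 15.1 CPM and aortic-labelled cells 5.32 to 13.8 CPM. Tnfsf12 shares its strand with the overlapping read-through gene Tnfsfm13, which had 42.5 to 72.7 CPM in macrophages, so the split of reads between them is uncertain.

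Tnfsf13b, the B cell survival factor BAFF (ENSMUSG00000031497, chr8:10006467-10039072, plus strand), was at 1.92 to 3.68 CPM over the 9 macrophage libraries. Its log2 fold change in macrophages was 0.08 at 1 h (SE 0.288) and 0.01 at 2 h (SE 0.29). Aortic-labelled cells had more of it, with 7.25, 9.22 and 7.58 CPM unstimulated, 6.45, 4.85 and 6.31 CPM after 1 h, and 8.42, 8.21 and 5.03 CPM after 2 h. There the 1 h libraries were all below the unstimulated ones, with a log2 fold change of -0.44 (SE 0.282, edgeR adjusted p = 0.826). Such a separation to the lower side was seen for 4.89% of all genes in that comparison. Fibroblasts had 2 to 16 counts of Tnfsf13b per library.

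Ltb, lymphotoxin beta, which joins lymphotoxin alpha in a membrane heterotrimer (ENSMUSG00000024399, chr17:35194439-35196320, plus strand), stayed low everywhere. Unstimulated macrophages had 0.856, 0.0575 and 0.231 CPM, the 1 h libraries 0.281, 0.227 and 0.752 CPM, and the 2 h libraries 0.636, 0.351 and 0.512 CPM. The groups overlapped, and the libraries with high Tnf were not those with high Ltb. The log2 fold change was 0.15 at 1 h (SE 0.757, edgeR adjusted p = 0.999), and -0.57 without the divergent pair. Ltb thus had 2 to 27 counts per macrophage library beside a neighbouring Tnf gene with 451 to 8310, 0 to 11 in fibroblasts and 0 to 4 in aortic-labelled cells.

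Among the receptors, those of TNF itself had no called change with ImP. Tnfrsf1a, the broadly expressed death domain receptor TNFR1 (ENSMUSG00000030341, chr6:125349362-125362484, plus strand), had 141, 144 and 139 CPM in unstimulated macrophages, then 127, 134 and 141 CPM (1 h) and 133, 139 and 137 CPM (2 h). Its log2 fold change was -0.08 at 1 h (SE 0.0577) and -0.05 at 2 h (SE 0.0578). In fibroblasts it had 74.2 to 92.4 CPM and in aortic-labelled cells 65.4 to 112 CPM. There the log2 fold change at 1 h was 0.28 (SE 0.162, edgeR adjusted p = 0.826) with overlapping groups.

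Tnfrsf1b, the TRAF-binding receptor TNFR2 (ENSMUSG00000028599, chr4:145213463-145246870, minus strand), had the highest unstimulated mean of the 10 genes in macrophages, in CPM and per kilobase. It had 565, 666 and 647 CPM unstimulated, 668, 640 and 600 CPM after 1 h, and 665, 660 and 668 CPM after 2 h. The groups at 0 h and 1 h overlapped and the log2 fold change was 0.02 (SE 0.0662, edgeR adjusted p = 0.996). Fibroblasts had 94.8 to 112 CPM and aortic-labelled cells 17.9 to 28.5 CPM, with log2 fold changes between -0.01 and 0.04 at 1 h and 2 h in these 2 cell types.

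Tnfrsf9, the co-stimulatory receptor 4-1BB that binds the product of Tnfsf9 (ENSMUSG00000028965, chr4:150914562-150946102, plus strand), was a fibroblast transcript in these data. Unstimulated fibroblasts had 190, 150 and 146 CPM, the 1 h libraries 262, 185 and 169 CPM, and the 2 h libraries 197, 189 and 150 CPM. The first 1 h library was the highest, and all 3 groups overlapped. The log2 fold change was 0.34 at 1 h (SE 0.177, edgeR adjusted p = 0.855), with a range of 0.12 to 0.47 when each library was left out in turn. Macrophages had 3 to 15 counts and aortic-labelled cells 1 to 77 counts per library, or at most 0.477 and 1.24 CPM. Camta1 overlaps Tnfrsf9 on the opposite strand and had 10.1 to 15.6 CPM in fibroblasts, and 12.7 to 22.2 CPM in aortic-labelled cells where Tnfrsf9 was low.

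Tnfrsf12a, the TWEAK receptor Fn14 (ENSMUSG00000023905, chr17:23675445-23677468, minus strand), had the highest unstimulated mean of the 10 genes in fibroblasts and in aortic-labelled cells, in CPM and per kilobase. Fibroblast libraries had 184 to 245 CPM and aortic-labelled libraries 253 to 334 CPM, and log2 fold changes at 1 h and 2 h lay between -0.14 and 0.13 in these cells. In macrophages it had 5.42, 4.97 and 5.19 CPM unstimulated, 5.21, 6.52 and 8.76 CPM after 1 h, and 5.50, 6.41 and 4.57 CPM after 2 h. The highest value came from the third 1 h library, in which Tnf was low. The log2 fold change at 1 h was 0.40 (SE 0.192, edgeR unadjusted p = 0.0576, adjusted p = 0.922) and was 0.18 without the divergent pair.

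Cd40, the receptor through which T cells stimulate macrophages and other antigen-presenting cells (ENSMUSG00000017652, chr2:165055627-165072948, plus strand), had 8.30, 8.56 and 7.53 CPM in unstimulated macrophages. The 1 h libraries had 13.6, 13.1 and 9.52 CPM, and the 2 h libraries 7.38, 8.06 and 14.3 CPM. All 1 h libraries were above all unstimulated ones, as for Tnf and Tnfsf9 and for 4.77% of all genes. The log2 fold change at 1 h was 0.57 as labelled (SE 0.237, edgeR unadjusted p = 0.0372, adjusted p = 0.922). With the pair left out it was 0.71 at 1 h and -0.08 at 2 h, and the log2 change from 1 h to 2 h was -0.79.

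In aortic-labelled cells Cd40 was lower in every ImP library than in every unstimulated one, in CPM scaled within the cell type. At 1 h the order was narrow, with 0.499 CPM in the first 1 h library against 0.525 CPM in the second unstimulated library. Scaled over all 27 libraries, these had 0.152 against 0.141 RPKM, so the 1 h and 0 h groups overlapped on that scale. The unstimulated libraries had 90, 11 and 56 counts, or 1.72, 0.525 and 2.13 CPM. The 1 h libraries had 31, 2 and 0 counts, and the 2 h libraries 11, 0 and 1, and 3 counts corresponded to 0.0492 to 0.158 CPM in these ImP libraries. The log2 fold change was -2.75 at 1 h (SE 1.43, edgeR adjusted p = 0.826) and -3.80 at 2 h (SE 1.52, edgeR unadjusted p = 0.0262, adjusted p = 0.539). All-below separations were seen for 4.89% of genes at 1 h and 8.48% at 2 h. Summed macrophage markers in the unstimulated group ranged from 54.2 to 86.7 CPM, against 53.8 to 57.6 CPM after 1 h and 49.0 to 63.8 CPM after 2 h, and their part in the Cd40 difference was not tested. Without the third unstimulated library, the unstimulated group had 90 and 11 counts left. The log2 fold change was then -2.39 at 1 h and -3.44 at 2 h (edgeR adjusted p = 1 and 0.916). The first 1 h and the first 2 h library decide the size of the fold: it was -4.79 at 1 h without the former and -6.14 at 2 h without the latter (edgeR adjusted p = 0.936 and 0.886). Over all libraries left out in turn it ranged from -4.79 to -2.20 at 1 h and from -6.14 to -3.24 at 2 h, with no call. In bulk RNA, fewer cells of a type and less RNA per cell cannot be told apart. Fibroblasts had 1 to 8 Cd40 counts per library.

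In fibroblasts, 7 of the 10 genes could be tested over time, and 0 were called at 1 h or at 2 h against 0 h or at 2 h against 1 h (edgeR, 0% of 14066 genes called in each). DESeq2 and limma-voom called 0 as well. At an unadjusted p under 0.05 there were 0, 1 and 0 genes with edgeR, in that order (5.87%, 2.43% and 12.1% of all genes), 1, 1 and 0 with DESeq2, and 0, 1 and 0 with limma-voom. Tnf, Ltb and Cd40 had too few counts to be tested. In aortic-labelled cells, 8 of the 10 genes could be tested, all but Tnf and Ltb, and 0 were called in each of the 3 comparisons by edgeR (0% of 14779 genes called), DESeq2 or limma-voom. At an unadjusted p under 0.05 edgeR gave 0, 1 and 0 genes (4.96%, 9.21% and 1.98% of all genes), and the other tools gave 1, 1 and 0 each. The spread between aortic-labelled libraries was wider, with a biological coefficient of variation of 0.326 against 0.126 in macrophages and in fibroblasts.

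**Figure D3:**
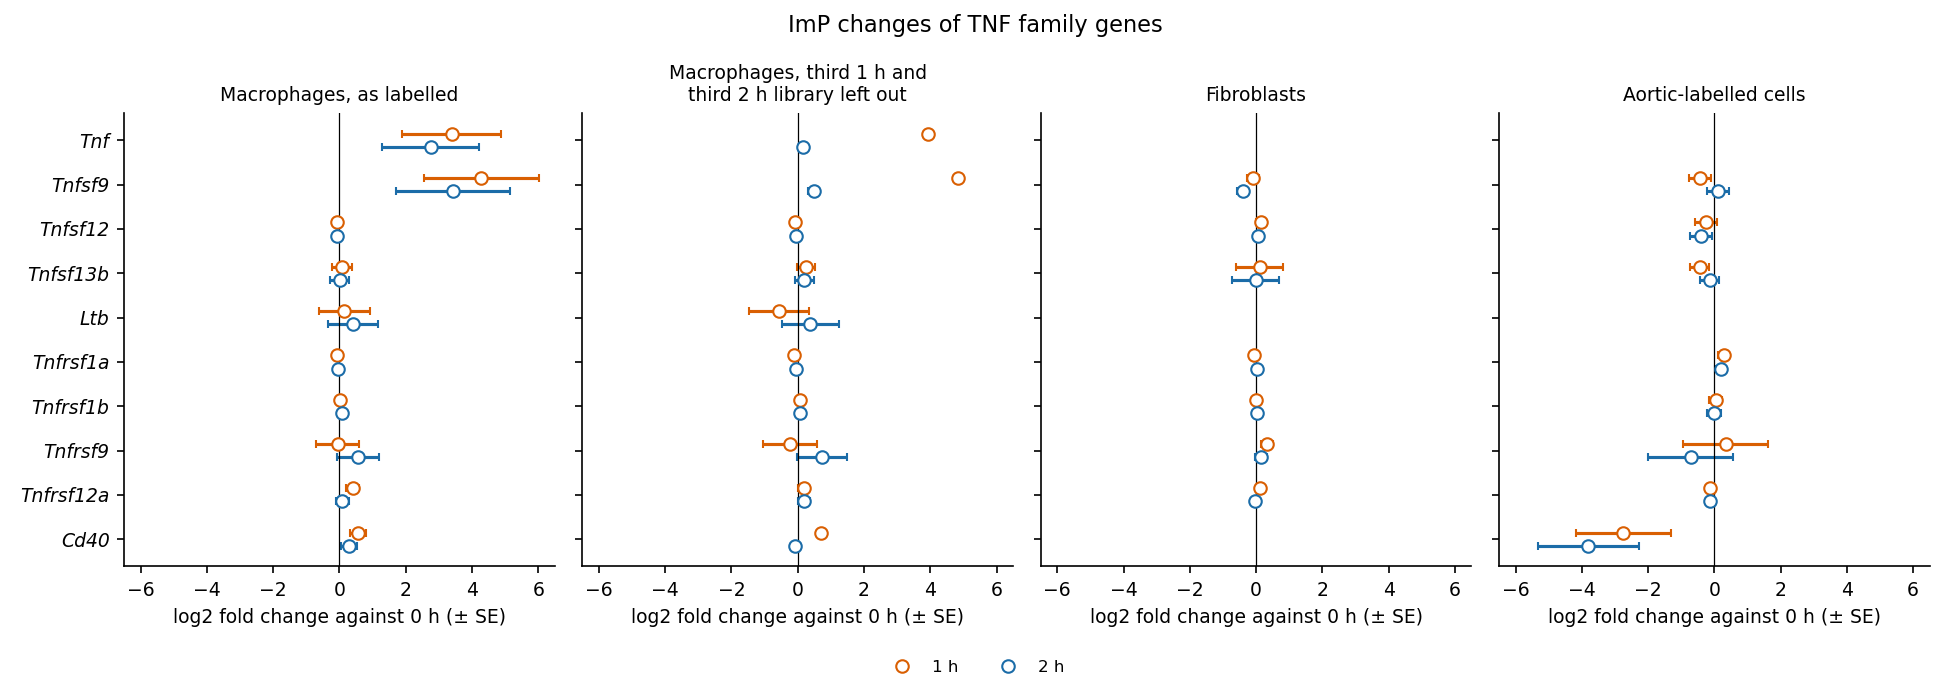
Log2 fold changes of the 10 genes at 1 h and 2 h against 0 h, from separate edgeR fits of each cell type, with genes that could not be tested left blank. Bars are SE derived from the F statistic of the test. As labelled, none of the 10 genes passed an adjusted p of 0.05. The second panel, without the divergent pair, is a description, in which Tnf at 1 h sits at 3.92 and at 2 h at 0.15. Its bars also come from the F statistic of that fit. They support nothing, since the pair was set apart by these genes' own levels.

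Whether the ImP change differed between cell types was tested as an interaction in 1 model of all 27 libraries (17038 genes). As labelled, 0 of 10 genes were called by edgeR for the 1 h or the 2 h change of macrophages against fibroblasts (0.00587% and 0.0117% of all genes called), with 1 gene each at an unadjusted p under 0.05 (3.62% and 2.18% of all genes). For macrophages against aortic-labelled cells the count was 0 at 1 h and at 2 h (0.0117% and 0.0528% of all genes), with 3 and 2 genes at an unadjusted p under 0.05 (6.68% and 7.85% of all genes). For aortic-labelled cells against fibroblasts it was 0 at both times (0% of all genes), with 1 gene each at an unadjusted p under 0.05 (11% and 7.93% of all genes). DESeq2 called Tnfsf9 at 1 h and Cd40 at 2 h for macrophages against aortic-labelled cells, and 0 in the other 4 interactions. It called 0.276% and 0.622% of all genes in the first pair of comparisons and between 0.0235% and 0.475% in the others. Limma-voom called 0 in all 6. With edgeR, Cd40 was called for macrophages against aortic-labelled cells at 1 h when the first 1 h aortic-labelled library was left out (log2 difference 5.56, adjusted p = 0.0333), and at 2 h when the first 2 h one was. The share of all genes called in those fits is not given here.

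With the divergent pair left out, the difference in the 1 h log2 change of Tnfsf9 was 4.92 between macrophages and fibroblasts and 5.26 between macrophages and aortic-labelled cells. For Tnf it was 6.40 against aortic-labelled cells and 2.06 against fibroblasts, which had 0 to 10 Tnf counts per library. The pair was set apart by the levels of these genes, so these values are a description with no test, and as labelled none of the 4 differences passed (edgeR adjusted p = 1 for Tnfsf9 against fibroblasts, 0.373 for Tnfsf9 and 0.743 for Tnf against aortic-labelled cells, and 1 for Tnf against fibroblasts).

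Before ImP, the 10 genes differed between cell types, as most genes did. Of 10 genes, 8 were called between unstimulated macrophages and fibroblasts, where 68.3% of all genes were called, and their log2 differences are given next as a description of the cell types. Tnf was higher in macrophages by 8.50 (SE 1.63, edgeR adjusted p = 0.000109, against 0, 1 and 4 counts in fibroblasts), Cd40 by 6.46 (SE 0.793) and Tnfsf12 by 3.80 (SE 0.21). Tnfsf13b was higher by 3.56 (SE 0.476), Tnfrsf1b by 3.02 (SE 0.144) and Tnfrsf1a by 1.13 (SE 0.12). Tnfrsf9 was lower in macrophages, with a log2 difference of -8.83 (SE 0.509, edgeR adjusted p = 8.92e-14), and so was Tnfrsf12a with -4.87 (SE 0.16, edgeR adjusted p = 2.33e-19). Tnfsf9 was lower in all 3 macrophage libraries than in all 3 fibroblast libraries, at 2.16 ± 0.22 against 5.71 ± 0.655 CPM (SD, n = 3, scaled over all 27 libraries). The share of all genes with such an order was not counted. The log2 difference of Tnfsf9 was -1.40 (SE 0.918, edgeR adjusted p = 0.183). The spread used in this test was estimated over all 27 libraries, the divergent pair among them. Without the pair the log2 difference was again -1.40 and lay past the threshold, given as a description.

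Aortic-labelled cells differed from fibroblasts in 6 of 10 genes before ImP, against 72.1% of all genes. Tnfsf13b was higher by 4.89 (SE 0.489), Cd40 by 3.78 (SE 0.785) and Tnfrsf12a by 0.77 (SE 0.132). Tnfrsf9 was lower with a log2 difference of -8.37 (SE 0.487) and Tnfrsf1b with -2.0 (SE 0.141). Ltb was called lower on 0 counts in each aortic-labelled library against 1, 8 and 2 in fibroblasts, and this call was lost with DESeq2 (adjusted p = 0.058) and with limma-voom (adjusted p = 0.0756). It was lost also without any 1 of the 3 unstimulated aortic-labelled libraries or without the second unstimulated fibroblast library, with edgeR adjusted p-values of 0.073 to 0.146.

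Macrophages and aortic-labelled cells differed in 8 of 10 genes, against 76.7% of all genes. Higher in macrophages were Tnfrsf1b by 5.02 (SE 0.159), Tnf by 5.98 (SE 1.31), Tnfsf12 by 3.94 (SE 0.213), Cd40 by 2.69 (SE 0.611) and Tnfrsf1a by 1.07 (SE 0.12), together with Ltb, which had 27, 2 and 7 counts against none. Lower were Tnfrsf12a with -5.64 (SE 0.165) and Tnfsf13b with -1.34 (SE 0.402). Tnfsf9 had -1.75 with edgeR, which did not call it, and -1.82 with DESeq2, which did (adjusted p = 0.0428). Without the divergent pair it also lay past the threshold with edgeR, given as a description. The Tnf difference rested on few counts: it ranged from 5.20 to 8.23 against aortic-labelled cells when each library was left out in turn, with the highest value without the third unstimulated aortic-labelled library, which had 22 counts. Against fibroblasts it ranged from 7.92 to 10.04, with the highest value without the third unstimulated fibroblast library. With limma-voom the Tnf call was lost in both macrophage comparisons, at adjusted p = 0.0835 against fibroblasts and 0.09 against aortic-labelled cells.

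**Figure D4:**
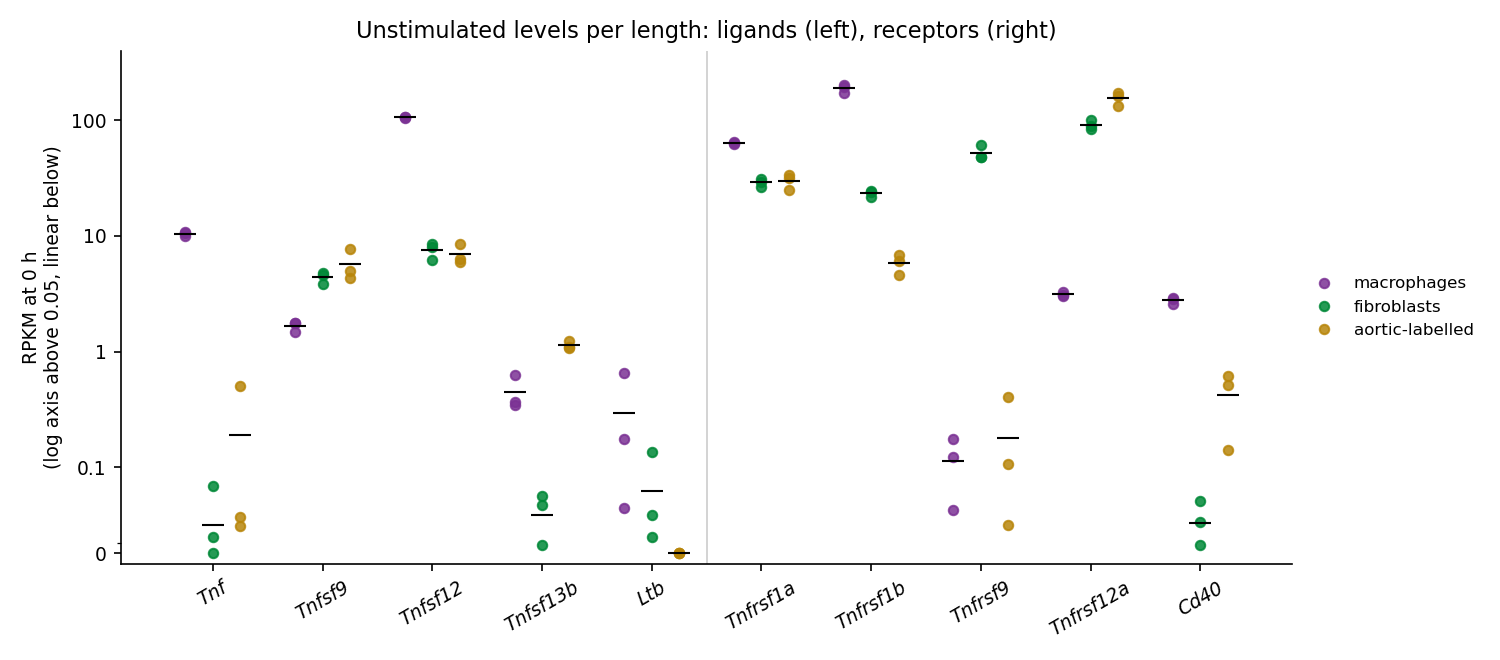
Levels of the 10 genes in the 9 unstimulated libraries in RPKM (CPM per kilobase of exon), scaled over all 27 libraries, on a log axis above 0.05 and a linear one below. Points are libraries and bars are means of 3. Tnfrsf1b leads in macrophages at 191 RPKM, and Tnfrsf12a leads in fibroblasts at 91.4 RPKM and in aortic-labelled cells at 156 RPKM.

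Per kilobase, unstimulated macrophages carried Tnfrsf1b at 191 ± 16.4 RPKM (SD, n = 3), then Tnfsf12 at 106 ± 1.19, Tnfrsf1a at 63.5 ± 1.43 and Tnf at 10.5 ± 0.468. Tnfrsf12a, Cd40, Tnfsf9 and Tnfsf13b followed at 3.12 to 0.447 RPKM. Each gene down to Tnfsf13b had all 3 libraries below those of the gene above it, and Ltb and Tnfrsf9 overlapped with their neighbours in the order. Receptors led the order in fibroblasts: Tnfrsf12a at 91.4 ± 7.64 RPKM, Tnfrsf9 at 52.7 ± 7.75, Tnfrsf1a at 29.1 ± 2.55 and Tnfrsf1b at 23.4 ± 1.40, with no overlap between neighbours. Tnfsf12 and Tnfsf9 had 7.61 and 4.43 RPKM, and the other 4 genes were under 0.1 RPKM. In aortic-labelled cells Tnfrsf12a stood at 156 ± 19.6 RPKM and Tnfrsf1a at 30.2 ± 4.48, while Tnfsf12, Tnfrsf1b and Tnfsf9 overlapped between 6.95 and 5.67 RPKM.

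Tnf and both of its receptors had their highest unstimulated level in macrophages, at 10.5 RPKM for Tnf, 63.5 for Tnfrsf1a and 191 for Tnfrsf1b. The ligand Tnfsf12 was highest in macrophages and its receptor Tnfrsf12a in fibroblasts and aortic-labelled cells. For Tnfsf9 and Tnfrsf9, both transcripts were above 1 RPKM in fibroblasts alone among the 3 cell types. The TACI gene Tnfrsf13b, whose product binds BAFF and APRIL, had 48.9 ± 3.43 CPM (SD, n = 3) in unstimulated macrophages against 0 to 4 counts per library in unstimulated fibroblasts and 0 to 11 in unstimulated aortic-labelled cells. The BAFF receptor gene Tnfrsf13c had no count in any macrophage library. Ltbr, the lymphotoxin beta receptor, had 26.7 ± 1.12 RPKM in unstimulated macrophages, 29.2 ± 1.23 in fibroblasts and 12.5 ± 2.94 in aortic-labelled cells (SD, n = 3, scaled over all 27 libraries). The CD40 ligand gene Cd40lg was sought but not found among the symbols of the count table, so no level is given.

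As labelled, none of the other 13 ligand genes, 23 receptor genes, 22 genes for adaptors, kinases and ubiquitin enzymes of the receptor complexes, or 6 genes for the release of soluble ligand and receptor was called by edgeR at 1 h or 2 h in any cell type. At 1 h in macrophages 6 ligands, 13 receptors, 22 adaptors and 6 release genes could be tested, with 0, 0, 2 and 2 at an unadjusted p under 0.05 (5.23% of all genes). At 2 h these were 0, 1, 1 and 1 (6.15% of all genes). In fibroblasts only 3 ligands, 16 receptors, 22 adaptors and 6 release genes could be tested. At an unadjusted p under 0.05 there were 0, 1, 1 and 1 at 1 h (5.87% of all genes) and 0 in each list at 2 h (2.43%). In aortic-labelled cells 6 ligands, 12 receptors, 22 adaptors and 6 release genes could be tested, with 0, 0, 2 and 0 at 1 h (4.96% of all genes) and 0, 1, 1 and 0 at 2 h (9.21%). Median log2 fold changes of the 4 lists at 1 h were 0.21, 0.07, 0.03 and 0.06 in macrophages, 0.11, 0.02, 0.05 and -0.02 in fibroblasts, and 0.20, -0.04, -0.07 and 0.21 in aortic-labelled cells, beside 0.00, 0.01 and 0.01 over all genes.

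With that pair left out, again as a description, 2 of 22 adaptor genes lay past the threshold on the higher side at 1 h in macrophages (0.824% of all genes). They were Cflar, which encodes the caspase-8 inhibitor cFLIP, at 130 against 99.9 CPM, and Map3k14, which encodes the kinase NIK of the non-canonical NF-kB pathway, at 31.2 against 23.7 CPM. Cflar shared the pattern by which the pair was set apart, with 128, 132 and 104 CPM (1 h) and 108, 102 and 139 CPM (2 h). Map3k14 had 30.3, 32.1 and 26.8 CPM (1 h) and 26.4, 25.9 and 27.7 CPM (2 h). Their place past the threshold is thus no support for a change. The ligand, receptor and release lists had 0 genes past the threshold by edgeR, with 1, 0 and 2 at an unadjusted p under 0.05 (7.4% of all genes). All 4 lists had 0 at 2 h against 0 h and at 2 h against 1 h, with 0, 2, 1 and 1 and then 0, 1, 4 and 0 at an unadjusted p under 0.05 (7.75% and 5.55% of all genes).

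Between unstimulated cell types the same lists differed widely, as did most genes. Macrophages against fibroblasts had 6 of 8 tested ligands higher and 0 lower, 6 of 19 receptors higher and 9 lower, 15 of 22 adaptors higher and 5 lower, and 4 of 6 release genes higher and 2 lower, beside 32.7% of all genes higher and 35.5% lower. On a scale set over all 27 libraries, Tnfsf13 (APRIL) had 22.1 against 0.552 CPM, and Tnfsf10 (TRAIL) 3.31 against 0.162 CPM. The TRAIL receptor gene Tnfrsf10b was lower in macrophages, at 1.90 against 51.2 CPM, and the RANK gene Tnfrsf11a was higher, at 112 against 0.609 CPM. Ripk1, the kinase of the TNFR1 complex, had 161 against 28.4 CPM and Birc3, a ubiquitin ligase bound to TRAF2, 50.8 against 3.92 CPM. Adam17, the protease that sheds TNF and its receptors, had 306 against 127 CPM, and Timp3, its inhibitor, had 3.6 against 77.5 CPM (edgeR adjusted p = 0.000111 or less for each gene named in these sentences).

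Aortic-labelled cells against fibroblasts had 3 of 8 ligands higher and 1 lower, 7 of 19 receptors higher and 8 lower, 8 of 22 adaptors higher and 10 lower, and 1 of 6 release genes higher and 5 lower, beside 37.2% of all genes higher and 34.9% lower. Timp3 stood at 2100 against 77.5 CPM and Tnfrsf11b, the decoy receptor osteoprotegerin, at 108 against 0.794 CPM. Fas had 62.7 against 1.79 CPM and Tnfsf15 had 14.3 against 0.292 CPM. Rhbdf2, which encodes the ADAM17 partner iRhom2, was lower at 0.845 against 26.4 CPM, and the TAK1 gene Map3k7 was lower at 16.5 against 157 CPM (edgeR adjusted p of 7.48e-12 or less for each gene named here). Macrophages against aortic-labelled cells had 3 of 8 ligands higher and 3 lower, 7 of 19 receptors higher and 9 lower, 16 of 22 adaptors higher and 3 lower, and 4 of 6 release genes higher and 2 lower, beside 36.1% and 40.6% of all genes. Tnfrsf11b had 0.108 against 108 CPM, and Tab2, which encodes a TAK1-binding adaptor, had 210 against 23.9 CPM (edgeR adjusted p = 2.19e-19 and 3.44e-16).

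Across the 9 macrophage libraries, the genes whose log2 CPM was most like that of Tnf among 11486 genes compared were Nfkbiz (Pearson r = 0.9986), Egr1 (0.9963), Zfp36 (0.9961), Cxcl2 (0.9959) and Tnfaip3 (0.9954). Nfkbiz, which encodes an atypical IkB protein, had 5.55 to 6.09 CPM unstimulated, then 132, 131 and 7.23 CPM (1 h) and 6.42, 8.10 and 137 CPM (2 h). The neutrophil chemokine gene Cxcl2 had 1.20 to 1.58 CPM unstimulated, then 90.4, 96.0 and 2.63 CPM (1 h) and 1.40, 2.63 and 101 CPM (2 h). Among the 10 genes, Tnfsf9 had r = 0.998 with Tnf and Cd40 had 0.967, while Tnfrsf1b had 0.335, Tnfrsf12a -0.212, Tnfrsf1a -0.642 and Tnfsf12 -0.699. These values describe 9 points of which 3 libraries are high and 6 low, and which share scaling and depth within a library.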

How the data were processed

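The authors deposited whole-number estimated counts per gene symbol for 27 mouse libraries. The submitters' processing notes name cutadapt, FastQC, STAR, RSEM, DESeq2 and R 4.3.2 with the builds mm10 and GRCm38.p6. The kit differed by cell type, per the labels' protocols, and whether counting used the strand is not given in the sources used here. RSEM can divide reads among genes that share sequence, which bears on Tnfsf12, Tnfsf13 and Tnfsfm13.

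All 100% of the deposited expected counts were whole numbers and needed no rounding. Counts were tested with edgeR 4.0.16 (TMM scaling, filterByExpr with a minimum count of 10, robust quasi-likelihood, two-sided, Benjamini-Hochberg adjustment over all genes tested, threshold 0.05) in R 4.3.3. Each cell type was fitted on its 9 libraries, and cell types were compared in a fit of all 27, so their comparisons share libraries and a common estimate of spread. The SE of an edgeR log2 fold change is its absolute value divided by the square root of the quasi-likelihood F. It thus restates the test and is no separate estimate of error. Levels per library are CPM with TMM scaling within a cell type. RPKM used exon lengths of GENCODE M21 (24506 symbols, or 97.3%, matched), scaled over all 27 libraries. Alternatives used DESeq2 1.42.0, limma 3.58.1 (voom), other scalings, no filter on low counts, fewer libraries, and library-code runs as a block. The scripts were tested on simulated data. Replicates of a group differed by more than counting noise in all 27 pairs (lowest chi-square per degree of freedom 4.95).

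The 10 genes, the pathway and marker lists and the fit without the divergent pair of macrophage libraries were chosen with earlier results of these data known. Named besides the 10 were up to 3 genes of each pathway list with the smallest p in a comparison, partners of the listed genes, and the 5 genes most like Tnf. The latter averaged 1 CPM or more and had the highest Pearson correlation of log2 CPM (prior count 1), leaving out predicted genes and pseudogenes. Intervals of counting error do not cover differences between cultures. A count of 0 allows up to 3 counts.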

Additional observations from a re-analysis of the deposited data

Results flagged for a closer look

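Without the divergent pair of macrophage libraries, 3 differences between cell types in the 1 h change lay past the threshold, and they are listed for that reason alone. The difference for Tnf between macrophages and fibroblasts did not, and is given above. The difference in log2 change was 4.92 for Tnfsf9 between macrophages and fibroblasts, 5.26 for Tnfsf9 between macrophages and aortic-labelled cells, and 6.40 for Tnf between macrophages and aortic-labelled cells, whose 1 h libraries had 5, 0 and 0 Tnf counts. The pair was set apart by the levels of these genes, so the values are a description and no test of that fit supports them. As labelled, none of the 3 passed (edgeR adjusted p = 1, 0.373 and 0.743).

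As labelled, opposite orders of the libraries were seen for a pair of genes. In CPM scaled within a cell type, all 1 h macrophage libraries were above 0 h for Cd40 and all 1 h aortic-labelled libraries were below it. The aortic-labelled order was narrow (0.499 against 0.525 CPM) and did not hold when scaled over all 27 libraries (0.152 against 0.141 RPKM). In the fit of all 27 libraries the difference in log2 fold change was 3.08 (SE 0.896, edgeR unadjusted p = 0.00207, adjusted p = 0.415). All 2 h macrophage libraries were above 0 h for Tnfsf9 and all 2 h fibroblast libraries were below it, with a difference of 3.80 (SE 1.27, edgeR unadjusted p = 0.00706, adjusted p = 1). Neither difference passed after adjustment.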

How the results depend on the processing

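Of 261 alternative counts of genes called among the 10, 253 were within 1.5 times the count as labelled and 8 were not. Without the divergent pair of macrophage libraries (the third of 1 h and of 2 h) the count went from 0 to 3 in macrophages at 1 h against 0 h and at 2 h against 1 h. Since the pair was set apart by the levels of these genes, these shifts are no support for a change. In that fit it went from 0 to 1 for the 1 h change in macrophages against fibroblasts, beside 0.154% of all 17582 genes. It went from 0 to 2 for that change against aortic-labelled cells, beside 0.216% of all genes. With DESeq2 it went from 0 to 1 for the 1 h (Tnfsf9) and the 2 h (Cd40) change in macrophages against aortic-labelled cells. Leaving out each library in turn gave 0 to 1 in both of these comparisons. The single call was Cd40 without the first 1 h aortic-labelled library (difference 5.56, edgeR adjusted p = 0.0333) and again Cd40 without the first 2 h aortic-labelled library. The share of all genes called in those fits is not given here. The cause of the shifts with DESeq2 and with single libraries was not tested. Over all alternatives, counts between unstimulated cell types ranged from 7 to 9 for macrophages against fibroblasts, 5 to 6 for aortic-labelled cells against fibroblasts and 7 to 9 for macrophages against aortic-labelled cells. Of 518 alternative values for single genes, 496 kept their direction and side of the threshold, 8 were no longer called, 14 became called and 0 changed direction.

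The labels carry library codes but no shared replicate numbers. With runs of these codes as a replicate block, the count stayed at 0 in all 9 comparisons over time. With 3 libraries a group, 22 or fewer counts of Tnf in fibroblasts and aortic-labelled cells and 27 or fewer of Ltb anywhere limit detection, and a missed threshold does not show that levels were equal.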
